A study of Mus musculus with 8 samples.

Results

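The genes described here encode the proteins of the box C/D and box H/ACA small nucleolar ribonucleoproteins (snoRNPs), the snoRNP chaperone Nolc1, and the abundant nucleolar proteins nucleolin (Ncl) and nucleophosmin (Npm1). They were chosen by name, as Ncl, Npm1, Fbl, Nop56, Nop58, Dkc1, Nhp2, Nop10, Gar1 and Nolc1, and each name matched 1 Ensembl gene, giving 10 of the 54838 genes in the count table. These genes, and the lists and motifs below, were chosen with earlier results of these data known. The numbers called are therefore descriptions and not a test of a list fixed beforehand. The transcripts were measured in mouse acute myeloid leukaemia (AML) cells of C57BL/6 background whose genotype is given as RUNX1-RUNX1T1, a fusion that all samples of both groups carry. The cells grew in Ptprca recipient mice, sub-lethally irradiated per the labels (the methods of the study name irradiation for its other models only), and were analysed in 4 Vehicle samples and 4 AG636 samples, the latter after oral gavage of AG636 at 100 mg/kg b.i.d. AG636 inhibits DHODH, an enzyme of de novo pyrimidine synthesis. AML cells were sorted from bone marrow and spleen. The methods of the study give high cKit and low CD11b, and its results name high cKit alone for this model. A figure legend gives cells positive for cKit and negative for CD11b. RNA was read with a QuantSeq 3′ mRNA kit, which gives about 1 tag per transcript at its 3′ end. Which sample came from which tissue, and whether samples of a group came from separate mice, is not stated in the labels, and a legend of the study gives fewer mice in a group than there are samples here. Samples may therefore share a mouse, and the p-values, which treat the 4 samples as independent, measure only the spread between these samples. The comparison asks which of these transcripts differed between leukaemic cells exposed to the inhibitor and those that were not.

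Small nucleolar RNAs guide the chemical modification of ribosomal RNA in the nucleolus, the compartment where ribosomes are made. Box C/D RNAs bind fibrillarin (Fbl), which methylates the ribose of the target base, together with the scaffold proteins Nop56 and Nop58. Box H/ACA RNAs bind dyskerin (Dkc1), which converts uridine to pseudouridine, together with Nhp2, Nop10 and Gar1, and the same core also stabilises telomerase RNA. Nucleolin and nucleophosmin are among the most abundant nucleolar proteins of dividing cells and take part in rRNA transcription and in the processing and export of preribosomal particles. Mutation of the human nucleophosmin gene is among the most common lesions in AML.

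Some of these genes are also hosts of the RNAs they serve. By the table's own coordinates 13 snoRNA genes lay inside 4 of the 10 genes, with 3 in Ncl, 5 in Nop56, 4 in Nop58 and 1 in Dkc1, each on the strand of its host. Sequences from the GRCm38 genome with GENCODE M21 gene models are shown for 4 box C/D RNAs and 1 longer RNA, as they carry the boxes that Fbl, Nop56, Nop58 or the dyskerin complex recognise. In the box C/D RNAs the capitals mark TGATGA (box C) near the 5′ end and CTGA (box D) near the 3′ end, and in the longer RNA they mark the ACA near its 3′ end.
Snord82, intron of Ncl, chr1:86356261-86356330, minus strand: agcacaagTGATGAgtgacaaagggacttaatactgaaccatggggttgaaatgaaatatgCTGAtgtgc
Snord110, intron of Nop56, chr2:130275506-130275573, plus strand: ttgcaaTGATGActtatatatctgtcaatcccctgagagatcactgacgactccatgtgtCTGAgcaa
Gm26287, intron of Nop58, chr1:59704258-59704338, plus strand: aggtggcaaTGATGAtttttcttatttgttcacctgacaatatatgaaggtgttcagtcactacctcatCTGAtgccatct
Snord11, intron of Nop58, chr1:59704790-59704873, plus strand: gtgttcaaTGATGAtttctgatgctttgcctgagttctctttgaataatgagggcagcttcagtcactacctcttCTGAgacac
Snora75, within Ncl, chr1:86351169-86351301, minus strand: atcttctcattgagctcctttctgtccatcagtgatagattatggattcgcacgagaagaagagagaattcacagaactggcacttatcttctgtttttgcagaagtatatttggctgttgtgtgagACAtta

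These libraries primed on poly-A, which mature snoRNAs lack, and the hosted RNAs were barely counted. Snord11 was the only 1 of the 13 that reached 10 counts in any sample, with 3, 1, 3 and 2 counts in Vehicle samples 1 to 4 and 3, 4, 4 and 13 in AG636 samples 1 to 4. The other 12 stayed at or below 8 counts. Hosted RNAs that share exonic bases with their host had 0 counts in every sample, while those that share none had some. The part of this sharing in the low counts was not tested. The levels described from here on are those of the protein-coding host and partner transcripts, and nothing was measured about the guide RNAs themselves.

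All 10 transcripts fell in AG636 samples. The decrease was between 26.0% (Nop10) and 46.8% (Nhp2) of the Vehicle mean, and the median of the 10 log2 fold changes was −0.71, where that of all 10911 tested genes was −0.0056. By limma-voom with Benjamini-Hochberg adjustment over all tested genes, 10 of 10 passed an adjusted p-value of 0.05 as lower and 0 as higher, beside 14.0% of all tested genes called in either direction, 8.49% lower and 5.47% higher. The quasi-likelihood test of edgeR and DESeq2 also called 10 of 10 lower, beside 8.41% and 9.25% of tested genes. In 10 of 10 the highest AG636 sample lay below the lowest Vehicle sample, a lack of overlap in that direction shown by 12.9% of tested genes. At an adjusted p-value under 0.01, which 2.70% of tested genes passed as lower, 8 of the 10 were called, the exceptions being Nop56 and Nop10. In the order of their log2 fold changes 7 of the 10 lay in the lowest 5% of tested genes.

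Each library held 6120030 to 7162036 counts, and levels are given as CPM, the count scaled to the TMM-adjusted library size, with SD over n = 4. The 10 genes together took 0.578% of all counts in Vehicle sample 1 (Wilson 95% interval 0.573 to 0.584%), the lowest Vehicle share, and 0.634% in Vehicle sample 4 (0.628 to 0.640%), the highest. In AG636 samples they took from 0.348% (0.343 to 0.352%, sample 1) to 0.417% (0.412 to 0.422%, sample 4). No interval of one group reached those of the other, and the intervals cover counting error only.

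**Figure D1:**
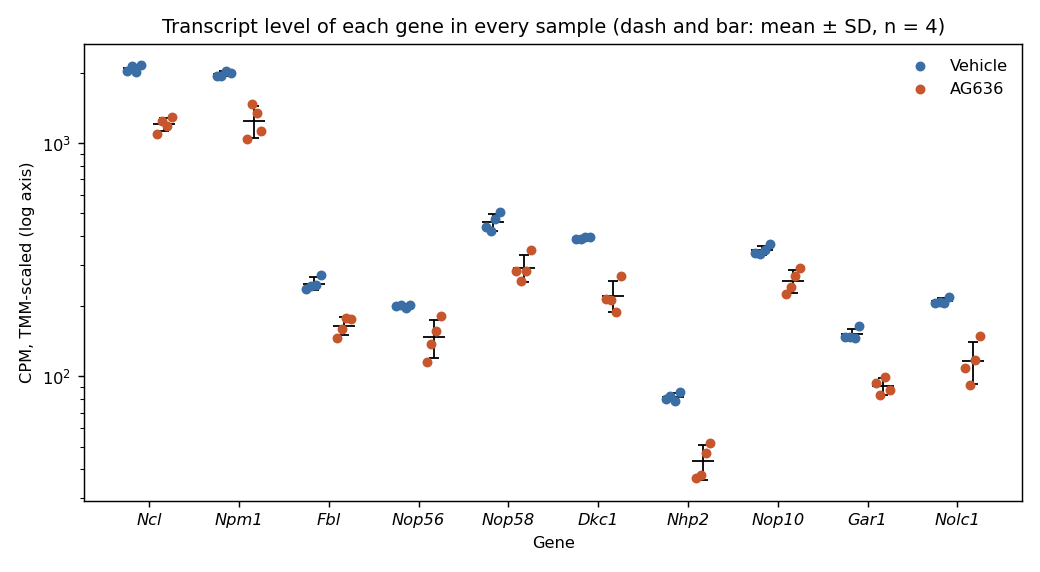
Level of each gene in every sample, in CPM on a log axis, with Vehicle samples in blue and AG636 samples in orange, and a dash with bar for mean ± SD (n = 4). For each of the 10 genes all 4 AG636 points lie under all 4 Vehicle points, with the narrowest gap at Nop56 and the AG636 points spread more widely than the Vehicle points.

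Nucleolin and nucleophosmin were by far the most abundant transcripts of the 10. Ncl (ENSMUSG00000026234, chr1:86344719-86359400, minus strand) ranked 33rd and Npm1 (ENSMUSG00000057113, chr11:33152287-33163206, minus strand) 36th by level among the tested genes in Vehicle samples. Together they made up 66.1% of the summed CPM of the 10 genes in Vehicle and 64.8% in AG636 samples.

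Nucleolin, an RNA-binding protein of the nucleolus, stood at 2050.3, 2141, 2024 and 2173 CPM in Vehicle samples 1 to 4 and at 1101, 1241, 1191 and 1296 CPM in AG636 samples 1 to 4. The Vehicle samples were close to each other, and even the highest AG636 sample was 36.0% below the lowest of them, the widest gap of the 10 genes. Average nucleolin tags fell from 2097 ± 71.2 to 1207 ± 82.9 CPM, a change of −0.80 on the log2 scale (standard error, SE, 0.080, 95% interval −0.98 to −0.62, limma-voom adjusted p = 0.00106).

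Nucleophosmin, a chaperone that shuttles between nucleolus and cytoplasm, stood at 1943, 1952, 2042 and 2012 CPM in Vehicle samples and at 1047, 1475, 1348 and 1132 CPM in AG636 samples. The AG636 samples were uneven, with samples 1 and 4 well under samples 2 and 3, but none reached a Vehicle sample. The mean went from 1987 ± 47.8 to 1251 ± 196 CPM, a change of −0.68 on the log2 scale (SE 0.11, adjusted p = 0.00458). As Ncl and Npm1 were nearly equal in Vehicle samples (log2 ratio of Npm1 to Ncl −0.077 ± 0.064), their ratio was also followed within each library, and in AG636 samples it was 0.040 ± 0.21 and ran from −0.20 to 0.25, a range that takes in the Vehicle range of −0.13 to 0.013.

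Of the relatives of nucleophosmin, Npm3, which binds Npm1 in the nucleolus, was the only 1 expressed at a testable level. Its mean was 102 ± 10.2 CPM in Vehicle and 79.8 ± 11.8 CPM in AG636 samples, a log2 fold change of −0.36 that did not pass (SE 0.12, adjusted p = 0.0645). Npm2, an oocyte histone chaperone, had at most 3 counts in any sample. Fbll1, a relative of fibrillarin, had 0 counts in every sample, where 3 counts would correspond to 0.434 to 0.479 CPM.

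Among the box C/D proteins the decrease ran from 26.6% (Nop56) to 36.4% (Nop58). Fibrillarin, the methyltransferase (Fbl, ENSMUSG00000046865, chr7:28169710-28179269, plus strand), stood at 237, 244, 246 and 273 CPM in Vehicle samples and at 147, 159, 178 and 176 CPM in AG636 samples. The highest value of the gene was that of Vehicle sample 4 and the lowest that of AG636 sample 1, with a clear space between the groups. Average fibrillarin tags fell from 249.9 ± 16.1 to 165 ± 14.9 CPM, a change of −0.60 on the log2 scale (SE 0.089, adjusted p = 0.00339).

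The count of Fbl carries an uncertainty of assignment, since 3 other gene entries hold a stretch of at least 300 bases with at least 90% identity to its transcript. They are a Tulp4 transcript with 690 bases at 99.6% identity and the pseudogenes Gm6211 and Gm5812. Their summed counts, mostly under Tulp4 (193 to 324 a sample), were 219 to 262 in Vehicle and 278 to 392 in AG636 samples, which is 13.6 to 15.2% and 27.9 to 35.2% of the count of Fbl itself. How reads that match several places were assigned is not stated, and the part of such reads in the value of Fbl was not tested.

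Nop58, the scaffold that contacts the box C/D RNA (ENSMUSG00000026020, chr1:59684971-59719044, plus strand), stood at 439, 422, 471 and 509 CPM in Vehicle samples and at 283, 257, 283 and 347 CPM in AG636 samples. It was the most abundant of the box C/D transcripts, and AG636 sample 4 came nearest to the Vehicle range, 17.6% below the lowest Vehicle sample. Its average fell from 460.2 ± 38.2 to 293 ± 38.4 CPM, a change of −0.66 on the log2 scale (SE 0.10, adjusted p = 0.00438).

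Nop56, the paralogous scaffold (ENSMUSG00000027405, chr2:130274430-130279313, plus strand), stood at 201, 202, 197 and 203 CPM in Vehicle samples and at 116, 137, 156 and 181 CPM in AG636 samples. The Vehicle samples were nearly the same, whereas AG636 sample 4 came within 7.99% of the lowest Vehicle sample, the narrowest gap of the 10 genes. The mean went from 200.8 ± 2.98 to 147.5 ± 27.8 CPM, a change of −0.46 on the log2 scale (SE 0.12, 95% interval −0.73 to −0.20, adjusted p = 0.0301). This was the weakest call of the 10, and it was lost in 8 of 19 alternative settings, which were scaling by library size alone (adjusted p = 0.0634), leaving out any 1 Vehicle sample (0.0708 to 0.0766), AG636 sample 1 (0.0563) or AG636 sample 2 (0.0584), and leaving out Vehicle sample 4 with AG636 sample 3 (0.0555). The log2 ratio of Nop56 to Nop58 within a library was −1.19 ± 0.12 in Vehicle and −0.998 ± 0.20 in AG636 samples, and the ranges of the groups overlapped.

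The box H/ACA proteins held both the largest and the smallest change of the 10. Dyskerin, the pseudouridine synthase (Dkc1, ENSMUSG00000031403, chrX:75095854-75109777, plus strand), stood at 389.6, 388, 395 and 397 CPM in Vehicle samples and at 216, 213, 189 and 269 CPM in AG636 samples. Its Vehicle samples were the tightest of any of the 10 genes, with a coefficient of variation of 1.07%, and all AG636 samples lay at least 30.6% below the lowest of them. On average dyskerin fell from 392 ± 4.19 to 222 ± 33.8 CPM, a change of −0.83 on the log2 scale (SE 0.10, adjusted p = 0.00179).

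Nhp2, an RNA-binding subunit of the complex (ENSMUSG00000001056, chr11:51619735-51623714, plus strand), stood at 79.8, 82.2, 78.5 and 85.5 CPM in Vehicle samples and at 36.5, 37.8, 47.1 and 52.0 CPM in AG636 samples. It was the least abundant of the 10, and AG636 samples 1 and 2 lay below samples 3 and 4. Average Nhp2 tags fell from 81.5 ± 3.09 to 43.4 ± 7.44 CPM, a change of −0.92 on the log2 scale (SE 0.12, 95% interval −1.18 to −0.66, adjusted p = 0.00195). Its lowest library held 235 counts, for a counting error of 6.52%, well under the difference.

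Nop10, the smallest protein of the complex (ENSMUSG00000027133, chr2:112261926-112263269, plus strand), stood at 338, 335, 347 and 371 CPM in Vehicle samples and at 226, 243, 269 and 291 CPM in AG636 samples. The groups were apart, but AG636 sample 4 lay only 13.3% below the lowest Vehicle sample. Its average fell from 348 ± 16.4 to 257 ± 28.4 CPM, a change of −0.44 on the log2 scale (SE 0.092, 95% interval −0.64 to −0.24, adjusted p = 0.0121).

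Gar1, which joins the mature particle and contacts Dkc1 (ENSMUSG00000028010, chr3:129824912-129831396, minus strand), stood at 148.3, 148.3, 147 and 164 CPM in Vehicle samples and at 93.9, 82.8, 99.3 and 87.2 CPM in AG636 samples. Vehicle sample 4 stood out above the other Vehicle samples, and the AG636 samples were all well below. On average Gar1 fell from 152 ± 8.38 to 90.8 ± 7.25 CPM, a change of −0.74 on the log2 scale (SE 0.086, adjusted p = 0.00167).

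Nolc1, a nucleolar phosphoprotein that binds both kinds of snoRNP and accompanies them between Cajal bodies and the nucleolus (ENSMUSG00000015176, chr19:46075863-46085530, plus strand), stood at 206, 209, 206 and 220.0 CPM in Vehicle samples. In AG636 samples it stood at 108, 91.8, 118 and 149 CPM. AG636 sample 4 lay above the other 3, though still 27.7% below the lowest Vehicle sample, and the coefficient of variation among AG636 samples, 20.6%, was the highest of the 10 genes. The average fell from 210.4 ± 6.53 to 117 ± 24.1 CPM, a change of −0.87 on the log2 scale (SE 0.13, adjusted p = 0.00312).

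Proportions among the 10 transcripts were described by 4 ratios. Within each library the mean log2 CPM of the box C/D proteins (Fbl, Nop56, Nop58) exceeded that of the box H/ACA proteins (Dkc1, Nhp2, Nop10, Gar1) by 0.46 to 0.51 in Vehicle samples (0.49 ± 0.025) and by 0.56 to 0.70 in AG636 samples (0.65 ± 0.058). Inside the H/ACA complex the log2 ratio of Nhp2 to Nop10 tags went from −2.09 ± 0.051 (−2.14 to −2.02) in Vehicle to −2.57 ± 0.093 (−2.67 to −2.47) in AG636 samples. The groups did not overlap in either ratio, whereas they did for Npm1 against Ncl and for Nop56 against Nop58. These 4 ratios are descriptions of levels of 3′ tags, picked with the levels known, and were given no test. How often ratios of other genes fail to overlap was not examined.

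**Figure D2:**
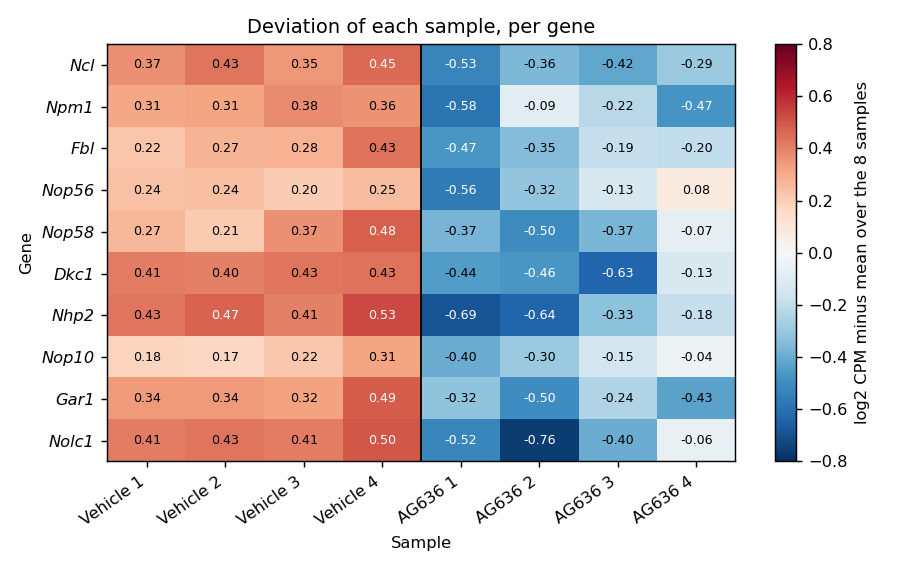
Log2 CPM of each gene (rows) in each sample (columns) minus the gene's mean over the 8 samples, from blue (below) to red (above). All Vehicle cells are positive, from 0.17 to 0.53, and all AG636 cells are negative, down to −0.76 for Nolc1 in sample 2, except Nop56 in AG636 sample 4 at 0.08.

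The spread among samples was not the same in the groups. For all 10 genes the coefficient of variation was larger in AG636 samples, 6.86 to 20.6% with a median of 14.2%, than in Vehicle samples, 1.07 to 8.31% with a median of 3.59%. The same was seen in 71.0% of all tested genes, whose median coefficient of variation was 16.04% in AG636 and 10.97% in Vehicle samples. AG636 sample 4 was the highest AG636 sample for 7 genes, the exceptions being Fbl and Gar1 (sample 3) and Npm1 (sample 2). AG636 sample 1 was the lowest for 6 genes, whereas Nop58, Gar1 and Nolc1 were lowest in sample 2 and Dkc1 in sample 3. In the Vehicle group sample 4 was the highest for 9 genes, with Npm1 highest in sample 3. A multidimensional scaling plot used, for each pair of samples, the 500 genes that differed most between them. On it Vehicle sample 4 (0.93 on dimension 2, other Vehicle samples at most 0.20) and AG636 sample 3 (−0.36 on dimension 1, other AG636 samples at least 0.42) lay away from their groups. By the mean chi-square per degree of freedom of the counts against its own group, AG636 sample 2 (21.8) was as far out as AG636 sample 3 (21.3). Without Vehicle sample 4 and AG636 sample 3, a setting chosen after the data had been seen, 9 of the 10 genes were called lower (7.29% of tested genes), Nop56 being the one lost.

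**Figure D3:**
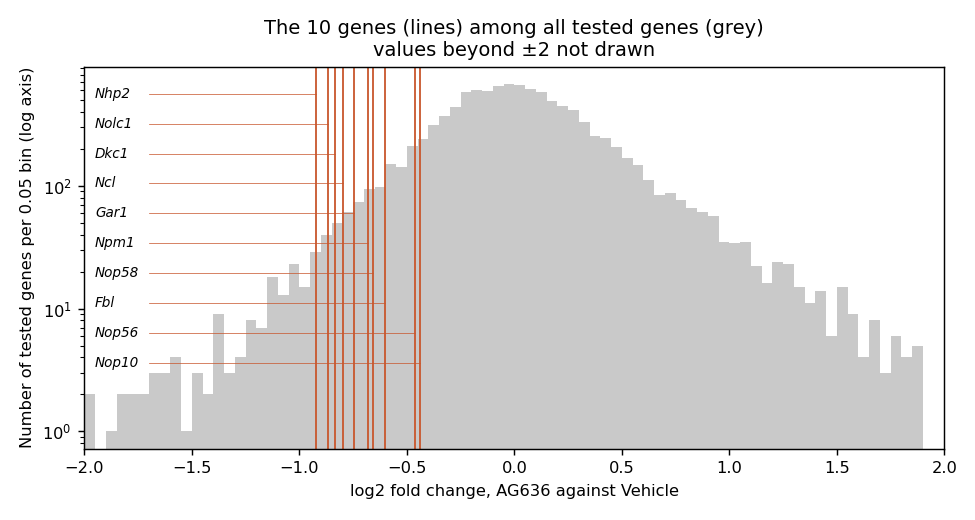
Histogram of the log2 fold changes of all tested genes between −2 and 2 (grey, number of genes per bin of 0.05 on a log axis) with the values of the 10 genes as vertical lines. The lines run from −0.92 (Nhp2) to −0.44 (Nop10), all on the lower side of the peak near 0.

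Assembly of snoRNPs needs further proteins, and these were followed through a list of 16 genes of which 15 were in the table under that symbol and tested (Nopchap1 was not matched). Of the 15, 9 (60%) passed as lower and 0 as higher, beside 8.49% and 5.47% of all tested genes. The median log2 fold change was −0.37. The 9 were Snu13, Rrp9, Ruvbl1, Ruvbl2, Znhit6, Naf1, Tgs1, Phax and Tcof1. Snu13, the protein that first binds the box C/D motif and the most abundant of the list, fell from 286 ± 21.2 to 185 ± 12.6 CPM (log2 fold change −0.63, SE 0.085, limma-voom adjusted p = 0.00218). Naf1, which holds the place of Gar1 during H/ACA assembly, fell from 50.1 ± 2.07 to 33.7 ± 6.63 CPM (−0.58, SE 0.13, adjusted p = 0.0150), and Ruvbl1, an ATPase of the R2TP and INO80 complexes, fell from 102 ± 12.7 to 76.5 ± 3.53 CPM (−0.40, SE 0.10, adjusted p = 0.0256). The count for this list was fragile, being 2 when libraries were scaled by size alone, 5 without the filter on low counts, 2 without Vehicle sample 4 and AG636 sample 3, and 1 when Vehicle sample 3 was left out. It was 3 without Vehicle sample 4, 4 without Vehicle sample 1 or sample 2, 5 without AG636 sample 1 and 2 without AG636 sample 2. In these settings the share of all tested genes called lower ran from 3.14% (no filter) to 7.29% (without Vehicle sample 4 and AG636 sample 3). That share was 5.23% by library size alone and 4.2% without Vehicle sample 3.

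A list of 15 other nucleolar proteins was followed in the same way. All were tested, and 12 (80%) passed as lower and 0 as higher, beside 8.49% and 5.47% of all tested genes. The median log2 fold change was −0.66. Gnl3 (nucleostemin), a nucleolar GTPase of proliferating cells, fell from 369 ± 19.8 to 182 ± 25.6 CPM (log2 fold change −1.03, SE 0.11, adjusted p = 0.00127). Mybbp1a, a nucleolar Myb-binding protein, fell from 188 ± 6.88 to 118 ± 8.43 CPM (−0.68, SE 0.080, adjusted p = 0.00178), and Nop16, a protein of pre-60S particles, fell from 82.0 ± 8.17 to 47.5 ± 4.18 CPM (−0.79, SE 0.10, adjusted p = 0.00216). Ddx21, an RNA helicase and the most abundant of the list, fell from 441 ± 17.6 to 329.7 ± 34.6 CPM (−0.42, SE 0.089, adjusted p = 0.0124). Npm3, Gnl3l and Pes1 did not pass.

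**Figure D4:**
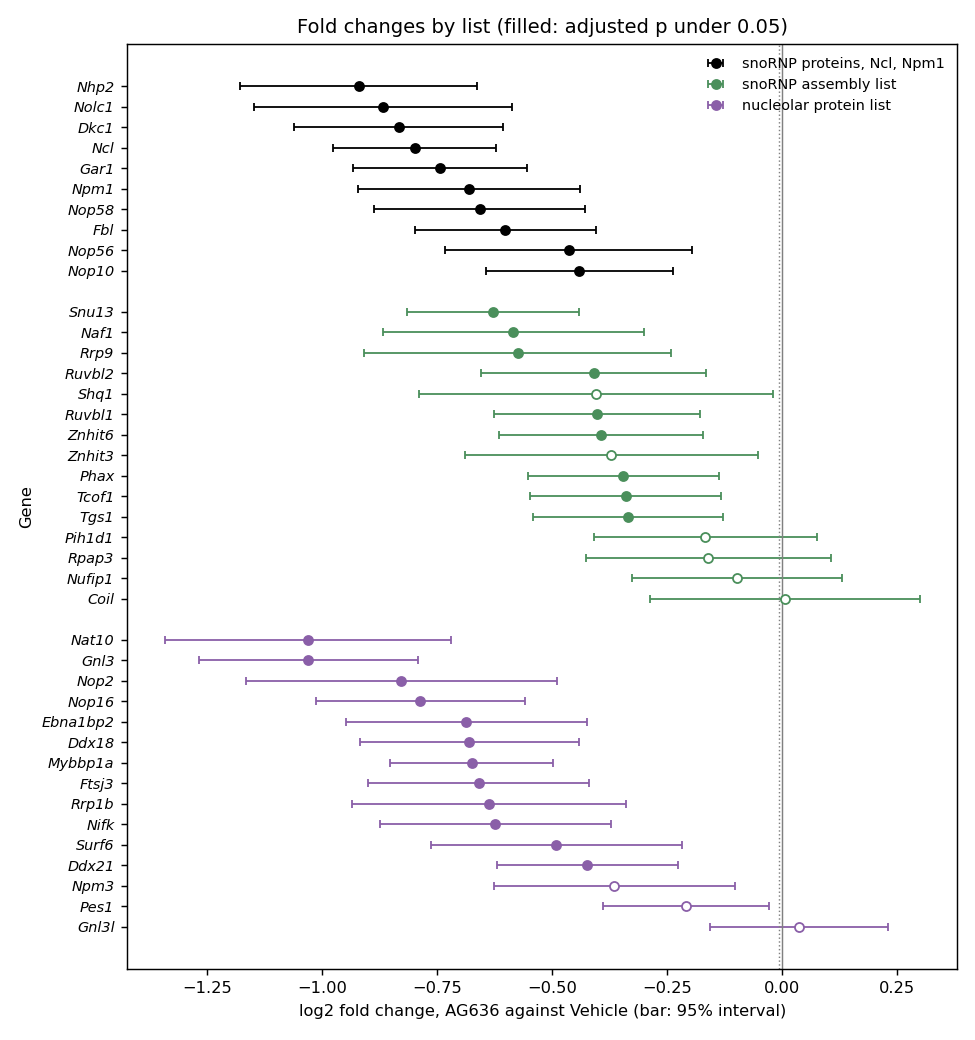
Log2 fold change of AG636 against Vehicle for the 10 genes (black), the snoRNP assembly list (green) and the nucleolar protein list (purple), each with its 95% interval, filled where the adjusted p-value was under 0.05. The dotted line marks the median of all tested genes at −0.0056. All 10 black points, 9 of 15 green and 12 of 15 purple points are filled, all of them left of 0.

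Dyskerin and its partners also belong to telomerase, and the telomerase genes did not show a shared direction. Tert, the catalytic subunit, had 0 to 7 counts and Terc, the RNA, which ends without poly-A, had 0 to 4 counts, so neither could be tested. Of the 3 that could, 0 passed. Wrap53, which brings telomerase to Cajal bodies, was at 19.2 ± 1.25 CPM in Vehicle and 15.7 ± 1.94 CPM in AG636 samples (log2 fold change −0.29, SE 0.13, adjusted p = 0.162). Tep1, a telomerase-associated protein, was at 21.7 ± 4.37 and 29.9 ± 8.20 CPM (0.43, SE 0.20, adjusted p = 0.178), and Parn, a nuclease that matures Terc, at 43.0 ± 4.27 and 55.7 ± 12.7 CPM (0.35, SE 0.16, adjusted p = 0.166). Parn passed only when AG636 sample 4 was left out (log2 fold change 0.50, adjusted p = 0.0375).

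Promoter sequences from RefSeq (GRCm38.p6, 250 bases before to 50 bases from the annotated start) were analysed for 8 of the 10 genes, while those of Fbl and Npm1 were not analysed here. On both strands, the E-box CACGTG was in 0 of 8 and in 7.17% of all 32544 promoters, and AANATGGC, the core of the YY1 motif, in 0 of 8 and 6.08%. TATAAA, the letters of a TATA box, was in 1 of 8 and in 13.6% of all. That match, in Dkc1, was on the strand opposite to the gene and 189 bases before its start. The E-box variant CACGCG and the ETS-type motif CCGGAAG, searched after the first 3 results were known, were each in 3 of 8, against 9.33% and 8.91% of all promoters. None of these motifs shares its full sequence with another of them, and a match or its absence is a description of letters in this window. The 4 promoters that hold 1 of the last pair are shown from 150 bases before to 30 bases from the start, in the direction of the gene, with the motif in capitals (CGCGTG and CTTCCGG being the motifs on the other strand).
Nhp2, chr11:51619623-51619802, plus strand: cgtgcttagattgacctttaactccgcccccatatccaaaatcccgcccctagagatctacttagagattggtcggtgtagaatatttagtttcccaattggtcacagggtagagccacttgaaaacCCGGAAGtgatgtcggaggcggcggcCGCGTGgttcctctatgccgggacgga
Nolc1, chr19:46075697-46075876, plus strand: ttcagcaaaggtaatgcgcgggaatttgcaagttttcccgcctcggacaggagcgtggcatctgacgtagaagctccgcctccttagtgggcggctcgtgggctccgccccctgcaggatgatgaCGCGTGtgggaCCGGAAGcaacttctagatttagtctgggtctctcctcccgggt
Gar1, chr3:129831367-129831546, minus strand: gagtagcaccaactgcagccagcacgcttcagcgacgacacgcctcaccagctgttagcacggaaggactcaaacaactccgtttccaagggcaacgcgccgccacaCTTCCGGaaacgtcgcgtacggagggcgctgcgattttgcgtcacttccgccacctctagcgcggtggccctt
Nop10, chr2:112261776-112261955, plus strand: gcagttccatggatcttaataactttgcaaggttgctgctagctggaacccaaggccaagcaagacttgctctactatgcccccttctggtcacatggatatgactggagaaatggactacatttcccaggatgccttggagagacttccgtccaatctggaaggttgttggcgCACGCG

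Nhp2 and Nolc1 held both motifs, Gar1 held CCGGAAG and Nop10 held CACGCG, while Ncl, Nop56, Nop58 and Dkc1 held neither. By log2 fold change Nhp2 (−0.92) and Nolc1 (−0.87), with both, decreased most, and Dkc1 (−0.83) and Ncl (−0.80), without either, came next. A relation of motifs to the size of the decrease was not tested. The CCGGAAG matches began 23, 43 and 14 bases before the RefSeq start of Nhp2, Gar1 and Nolc1. For Nhp2 and Nolc1 that start differs from the start of the gene span given above. The GC content of the 8 promoters ran from 45.3% (Nop58) to 69.3% (Ncl), around a median of 53.0% for all promoters, and they held 7 (Nop10) to 33 (Ncl) CpG, where the median promoter held 7.

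Myc is a transcription factor known to drive genes of ribosome synthesis, Ncl and Fbl among them. It was lower in AG636 samples, at 97.6 ± 19.3 CPM in Vehicle and 56.6 ± 7.12 CPM in AG636 samples (log2 fold change −0.77, SE 0.15, limma-voom adjusted p = 0.00867). Whether Myc had a part in the decrease of the 10 genes was not tested. The 5 tested genes outside the 10 whose profile over the 8 samples was most like the mean profile of the 10, by the root mean square difference of centred log2 CPM, were Timm9 (0.037), Mybbp1a (0.042), Cdt1 (0.053), Set (0.056) and Pop1 (0.057). Timm9 is a chaperone of mitochondrial protein import, Cdt1 a licensing factor of DNA replication, Set a histone chaperone and Pop1 a subunit of RNase P and RNase MRP. The 10 genes themselves were at 0.068 (Fbl) to 0.167 (Npm1) from their own mean profile. The 5 lay nearer to it, having been picked as the nearest of all tested genes. The 10 were chosen by name, with earlier results of these data known.

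Several annotations touch the values of single genes. Nop56 shares 5 exonic bases with Idh3b, Dkc1 shares 45 with Mpp1 and Nhp2 shares 44 with Rmnd5b, each on the opposite strand. Whether the counting used strand is not stated, and the counts of those neighbours reached 712, 892 and 239 in a library. Npm1 has 8 pseudogene copies of at least 300 bases and 90% identity, with summed counts of 0.104 to 0.179% of its own, and Nop56 has 4 with at most 0.942%. Those of Dkc1 and Nhp2 had 0 counts.

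The labelled cell type was compared with its defining markers. Of 8 AML and progenitor markers 6 were tested and 0 were called, with Kit, a marker of the sort, at 163 ± 9.62 CPM in Vehicle and 206 ± 41.0 CPM in AG636 samples. Cebpa had at most 1 count and Flt3 at most 5 counts, and the leukocyte antigen Ptprc and the myeloid enzyme Mpo averaged 3.87 and 3.18 CPM in Vehicle samples. Myb averaged 447 CPM in Vehicle and 579 CPM in AG636 samples, Spi1 35.9 and 47.6 CPM, and Cd34 8.63 and 12.3 CPM. The summed level of the 8 was 606 to 738 CPM in Vehicle and 684 to 985 CPM in AG636 samples. The 6 erythroid markers used, globins and Klf1 among them, were all expressed, with summed levels of 2087 to 5948 CPM in Vehicle and 4491 to 6011 CPM in AG636 samples. Of these 1, the globin Hbb-bt, was called, from 25.6 ± 9.19 to 46.6 ± 9.32 CPM (log2 fold change 0.90, adjusted p = 0.0238). The summed mature myeloid markers were at 39.9 to 87.4 and 15.4 to 169 CPM with 0 of 4 tested called, the B cell markers at 4.30 to 10.2 and 7.98 to 17.8 CPM with 1 of 4 called (Cd79a, higher), and the T and NK cell markers at 1.67 to 8.98 and 3.67 to 19.1 CPM with 0 of 1 called. The cell cycle markers summed to 3023 to 3860 and 3439 to 3833 CPM, and among these 7 Mcm2 and Mcm5 were called lower and Ccnb1 higher. The part of these markers in the decrease of the 10 genes was not tested. Fewer cells of a type and less RNA per cell cannot be told apart in such samples.

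**Figure D5:**
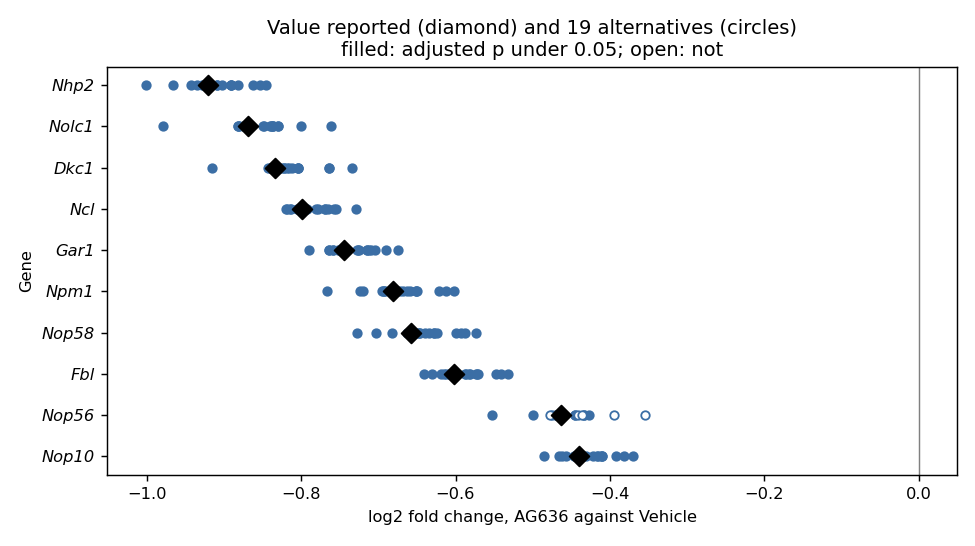
Log2 fold change of each gene as reported (black diamond) and under 19 alternative settings (circles), filled where the adjusted p-value was under 0.05 and open where it was not. Every value lies left of 0, and the open circles are all 8 in the row of Nop56.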

How the data were processed

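The genes and lists described, and the motifs searched, were chosen with earlier results of these data known. Raw counts of reads for each gene were deposited. The authors removed low-quality reads, trimmed them with cutadapt, mapped them to the mouse genome with HISAT2 and counted them with featureCounts of the Subread package (versions 1.9.1, 2.0.4 and 1.5.0-p3 and the build GRCm38/mm10 per the submitters' processing notes, where the methods give other versions of cutadapt and Subread). Treatment of strand and of reads with several matches is not given in the sources used here. Samples were grouped by title. Symbols came from a name table (115 of 54838 genes had none), and coordinates are those of the table.

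Genes were kept by filterByExpr (minimum count 10), scaled by TMM, and compared by limma-voom in R 4.3.3 (edgeR 4.0.16 and limma 3.58.1) with group as the only term, two-sided, with Benjamini-Hochberg adjustment over all 10911 tested genes and a threshold of 0.05. limma is the test named in the methods of the study. Ratios and profiles used log2 CPM with a prior count of 2. The fit was tested on simulated counts, where 76% of 200 genes changed by 1 on the log2 scale were recovered. Of the calls, 5% were false. Smaller changes, such as those of the 10 genes, were not simulated. No pair of replicates agreed within sampling noise. Copies were searched with blastn 2.17.0+. Named genes were all 10, all telomerase genes and paralogs, and from the other lists the 3 smallest p-values and the highest level. Alternatives were edgeR's quasi-likelihood test, DESeq2 (1.42.0), sample quality weights, other scalings and filters, mitochondrial genes and Gm42418 left out, the replicate block, and each sample left out. Protein features were not analysed here. A marker of the erythroid list is not reported here and was left out of its sum.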

Additional observations from a re-analysis of the deposited data

Results flagged for a closer look

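Gar1 in Vehicle sample 4 stood at 164.46 CPM, apart from the other Vehicle samples at 146.7 to 148.31 CPM. Its distance to the nearest sample was 0.909 of the range of the group, above the 95% critical value of Dixon's test for 4 samples. Among the 20 combinations of gene and group examined this was the only such sample, and chance gives about 1. Without Vehicle sample 4 the log2 fold change of Gar1 was −0.69 in place of −0.74 (limma-voom adjusted p = 0.00707).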

How the results depend on the processing

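Over 19 alternatives the log2 fold changes of the 10 genes gave 190 values, all negative, of which 182 passed, and the 8 that did not were those of Nop56. The other 9 genes were called in each alternative (highest adjusted p = 0.0421, Nop10 without Vehicle sample 3), and no value moved by more than 1.31 times. Outside the omission of single samples the number called was 8 to 10, with 8 at an adjusted p-value under 0.01, and 9 to 10 when 1 sample was left out. Scaling by library size alone moved the median of all genes by 0.070 on the log2 scale, gave 571 genes lower and 918 higher in place of 926 and 597, so that 38.3% of calls were lower in place of 60.8%, and left 9 of the 10 called with a median of −0.64. DESeq2 called 955 genes higher. At an adjusted p-value under 0.01, 295 genes were lower (2.70% of tested genes) and 140 higher. Leaving out 1 sample gave 467 to 937 genes lower (4.2 to 8.49% of tested genes) and 221 to 769 higher. The snoRNP assembly list had 2 called by library size alone, 5 without the filter, 5 with the replicate block, 2 without Vehicle sample 4 and AG636 sample 3, 1 at an adjusted p-value under 0.01, and 1 to 9 when 1 sample was left out, in place of 9. The nucleolar list had 11 to 12 called when 1 sample was left out, 9 at an adjusted p-value under 0.01 and 13 with sample quality weights, in place of 12. With sample quality weights 9.63% of all tested genes were called lower. The cause of these shifts was not tested. Npm3 passed with sample quality weights (adjusted p = 0.0459). Same-numbered samples of the 2 groups correlated at −0.14, 0.01, 0.20 and 0.14 in their deviations from the group means, so the numbers were not taken as pairs. The replicate block called 10 of the 10 genes lower and 830 tested genes (7.61%). Among the 10 genes counting error was largest for Nhp2, with a lowest count of 235. The hosted snoRNAs, Tert and Terc lay below what these libraries can compare.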
